A study of Mus musculus with 4 samples.

Results

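The stefin A genes are a tandem cluster of closely related genes on mouse chromosome 16, described here across 4 single-cell RNA libraries. The 6 members, Cstdc5, Cstdc4, Stfa1, Stfa2, Stfa2l1 and Stfa3, were taken by symbol from the 32285 genes counted, and all 6 were present. The genes were chosen by their raw counts in the 3 Kit+ libraries, so differences between those libraries are given as a description without a test. Stefins are small cytosolic proteins that bind and block papain-like cysteine proteases, the family that holds most lysosomal cathepsins. In the mouse the stefin A genes are multiplied into a cluster, and they are known for expression in cells of the neutrophil lineage. Neutrophil precursors make the primary granule protease neutrophil elastase (Elane) first, and later the secondary granule proteins Ngp, Camp, Ltf and Lcn2.

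The cells came from bone marrow 10 weeks after transplantation and carried CD45.2, the allele of a pan-leukocyte surface protein commonly used to mark donor cells. Of the 4 libraries, 3 were of Kit+ cells, from the control, the Mll3/4 deleted and the Mll3/4SI group, and 1 was of control B220lo cells. Mll3 and Mll4 are the histone methyltransferases encoded by Kmt2c and Kmt2d. By its title, the study asked how these proteins act in stem cell self-renewal, in myeloid identity and in B-cell priming, apart from their enzymatic activity. Kit marks stem and progenitor cells, and B220 is an antigen of the B lineage that some other cells carry at a low level. The labels did not expand SI and gave neither the strain, the means of deletion, the age of the animals nor how many animals entered a library. With 1 library per group no difference could be tested, the 95% intervals below cover counting error only, and library and condition cannot be told apart.

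After filtering, the libraries held 11051 control Kit+, 13747 deleted, 11501 SI and 15380 control B220lo cells, with median depths of 11594, 6507, 11969 and 3246 unique molecular identifiers (UMIs, 1 per captured transcript). Levels are given as CPM, the UMIs of a gene scaled to the total UMIs of the same cells. Kmt2c was counted at 51.8 to 62.7 CPM and Kmt2d at 20.1 to 24.0 CPM in the Kit+ libraries. Counts from transcript starts do not check a deletion elsewhere in these genes. Pairs of libraries shared 178 to 292 cell barcodes, 1.61 to 2.14% of the smaller library.

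The 6 genes lie within chr16:36156811-36455392 (GRCm38), in the order Stfa2l1, Cstdc4 and Stfa1 on the plus strand, then Cstdc5, Stfa2 and Stfa3 on the minus strand. All 6 are annotated as protein coding. Between pairs of members, 78.5 to 97.1% of aligned transcript bases and 71.2 to 96.1% of the 250 bases before the start site were identical. The closest pairs were Stfa1 with Cstdc5 and Stfa2 with Stfa2l1. Of the 90-base windows of the longest transcript, 16.6% in Cstdc5, 7.39% in Stfa1, 2.42% in Stfa2l1, 2.32% in Cstdc4, 2.09% in Stfa2 and 0% in Stfa3 also occurred in a transcript of another gene. Reads from such stretches cannot be assigned to 1 member, so the split between Cstdc5 and Stfa1 and between Stfa2 and Stfa2l1 is less certain than their sum. Cstdc5 also shared 90-base windows with Cstdc6, a gene of the same cluster outside the 6. In the first 300 bases, which a 5′ library samples most, Stfa1, Cstdc5 and Stfa3 had no shared 60-base window, while 31.1% of windows in Cstdc4, 23.7% in Stfa2l1 and 10.4% in Stfa2 were shared. At 90 bases these shares were 7.11%, 3.79% and 0%. In Stfa1, Cstdc5 and Stfa2 the annotated gene starts upstream of the RefSeq start site. There these shares do not show whether reads from that site can be told apart. Cstdc5 is also overlapped by the antisense gene Gm15845, which had 0 UMIs in the Elane-positive cells of all 4 libraries.

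One element was common to all 6 promoters. The 30 bases below are printed because they show how alike the start regions are. They come from the RefSeq promoter table (GRCm38.p6), and capitals mark the 2 stretches GAGGAGGAG and TTTAAAA.
Stfa2l1: GAGGAGGAGtttacagaaaccTTTAAAAcc
Cstdc4: GAGGAGGAGtttacagataccTTTAAAAcc
Stfa1: GAGGAGGAGctttcggataccTTTAAAAcc
Cstdc5: GAGGAGGAGtttacagataccTTTAAAAcc
Stfa2: GAGGAGGAGcttacagaaaccTTTAAAAcc
Stfa3: GAGGAGGAGcttacagataaccTTTAAAAc
In the same order they stand at chr16:36156757-36156786, chr16:36184162-36184191 and chr16:36277097-36277126 on the plus strand, and at chr16:36367571-36367600, chr16:36408384-36408413 and chr16:36455416-36455445 on the minus strand. Cstdc4 and Cstdc5 carried the same 30 bases. TTTAAAA began 29 to 33 bases before the RefSeq start site in 5 genes and 9 bases before it in Cstdc5. In Stfa1, Cstdc5 and Stfa2 the printed bases lie inside the gene as GENCODE M21 draws it, after an annotated start further upstream.

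Both stretches were chosen after the sequences were seen. On either strand of the 250 bases before the start site, TTTAAAA occurred in 8.10% and GAGGAGGAG in 2.75% of all 32851 promoters of the table. Of 4 other motifs searched in the same way, GAGGAA was found in 6 of 6 members (23.3% of all promoters), GATAA in Stfa1, Cstdc5 and Stfa3 (22.6%), TTGCNNAA in Stfa1 and Cstdc5 (9.56%) and TATAAA in 0 of 6 (12.4%). GAGGAA matched on the strand of the gene in 1 of the 6 members (12.4% of all promoters), while GAGGAGGAG (1.46%) and TTTAAAA (5.40%) did so in 6 of 6. The 6 promoters resemble each other, so their matches are not independent.

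Cells were described in 4 overlapping gates on raw UMIs. They were at least 10 of Elane (neutrophil progenitors), 3 of Fcer1a (an IgE receptor chain of mast cells and basophils), 1 of Hlf (a stem cell transcription factor) and 10 of Car1 (an erythroid carbonic anhydrase). The Elane gate held 4223 control Kit+, 554 deleted and 3345 SI cells. The Fcer1a gate held 127, 4 and 2341, the Hlf gate 2493, 186 and 3238, and the Car1 gate 2288, 62 and 869, in the same order. In the control Kit+, deleted and SI libraries, 6 neutrophil progenitor markers summed to 43634 to 49382 CPM in the Elane gate, and 7 erythroid markers to 6674 to 7051 CPM in the Car1 gate. The 6 stem cell markers summed to 487 to 492 CPM in the Hlf gate, where neutrophil progenitor markers summed to 17035 CPM in control Kit+, 23206 in deleted and 13067 in SI cells. The 7 mast or basophil markers summed to 2075 to 3244 CPM in the Fcer1a gate, which also carried 9210 CPM of neutrophil progenitor markers in control Kit+ and 6068 CPM in SI cells. The Elane gate also carried monocyte markers, 6 genes, at 3021 CPM in control Kit+, 2979 in deleted and 2366 in SI cells. B lineage markers, 8 genes, summed to 888 CPM in the deleted Elane gate, against 55.4 CPM in control Kit+ and 52.9 CPM in SI cells. With 4 deleted cells, the Fcer1a gate gives no usable level for that library.

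Stefin A transcripts were counted in SI cells of the Elane gate and were not detected in any of the 4 gates of the control Kit+ and deleted libraries. In the Elane gate the 6 genes summed to 0 UMIs in 62496417 control Kit+ UMIs, 0 UMIs in the deleted library and 510 UMIs in SI cells. Of the SI UMIs, 84.1% were in 2 cells with 307 and 1081 UMIs of the secondary granule gene Ngp. These cells also count as later neutrophil cells below. The SI level was 9.28 CPM (8.49 to 10.1), and the 2 libraries at 0 allow up to 0.0480 and 0.273 CPM, the level of 3 counts. This level is the floor used for a count of 0, unless an exact Poisson interval is named. A stefin UMI was present in 37 of 3345 SI cells (1.11%, 0.780 to 1.52) at a median depth of 16277 UMIs. In control Kit+ cells it was present in 0 of 4223, which allows a share of up to 0.0710%, at a median depth of 14418 UMIs. Thinned to 2000 UMIs per cell, the SI share was 0.330% (11 of 3335 cells) and the control share 0 of 4199, with 10 and 24 shallower cells left out. The SI level was 193 times this floor over the control gate, and 57.3 times without its richest cell. These multiples leave out the counting error of the SI level. On the log2 scale with 1 CPM added, the SI over control ratio was 3.36.

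Cstdc5 was the most abundant member there, with 266 UMIs in SI and 0 in control Kit+ and deleted cells. Stfa1 had 116, Stfa2 49, Stfa3 44, Stfa2l1 34 and Cstdc4 1 UMI in SI cells, and each had 0 in the other 2 libraries. Cstdc5 stood at 101, Stfa1 at 44.0, Stfa2 at 18.6, Stfa3 at 16.7 and Stfa2l1 at 12.9 times the floor, again without the counting error of the SI level. No fold is given for Cstdc4. A single SI cell held 166 of the Cstdc5, 74 of the Stfa1, 49 of 49 Stfa2, 43 of 44 Stfa3 and 27 of 34 Stfa2l1 UMIs. Without it Cstdc5 stood at 37.9 and Stfa1 at 15.9 times the floor, Stfa2l1 had 7 UMIs (0.127 CPM, 0.0512 to 0.263), Stfa3 1 and Stfa2 0. At least 20 UMIs over both libraries were reached by 5 of the 6 members, which passed only through the SI library. Of these, Cstdc5 (log2 ratio 2.55) and Stfa1 (1.64) lay past 2-fold higher, where 1.22% of the 14710 genes counted deeply enough did (0.496% lay past 2-fold lower), and nothing is read from that count because the contrast chose the genes. Stfa2 (0.92), Stfa3 (0.85) and Stfa2l1 (0.69) stayed under 2-fold on this scale, which understates low genes.

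In the other 3 gates the genes were close to absent. The Hlf gate had 15 UMIs in 9 of 3238 SI cells, 0.357 CPM (0.200 to 0.589), against 0 UMIs and a floor of 0.102 CPM in control Kit+ cells. Of these 9 cells 7, with 12 of the 15 UMIs, were also in the Elane gate, and Hlf cells in no other gate had 2 UMIs (log2 ratio 0.13). The Fcer1a gate had 1 UMI in 2341 SI cells, and the Car1 gate 1 UMI in 869 SI cells. The control Kit+ floors were 2.11 and 0.0723 CPM, so in these 2 gates no difference was detectable at this depth. In these 3 SI comparisons and in all 4 comparisons of deleted with control Kit+ cells, 0 of the 6 members reached 20 UMIs. Among all genes that did, the shares past 2-fold higher and lower for SI over control were 5.89% and 4.59% in the Fcer1a gate, 1.37% and 1.04% in the Hlf gate and 0.753% and 0.484% in the Car1 gate. For deleted over control they were 2.34% and 1.9% in the Elane gate, 9.08% and 30% in the Fcer1a gate, 2.13% and 3.74% in the Hlf gate and 2.0% and 4.79% in the Car1 gate. At the edge of the Elane gate, SI cells with 10 or 11 Elane UMIs held 8 stefin UMIs in 1 of 72 cells, and those with 8 or 9 held 0 in 128 cells.

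**Figure D1:**
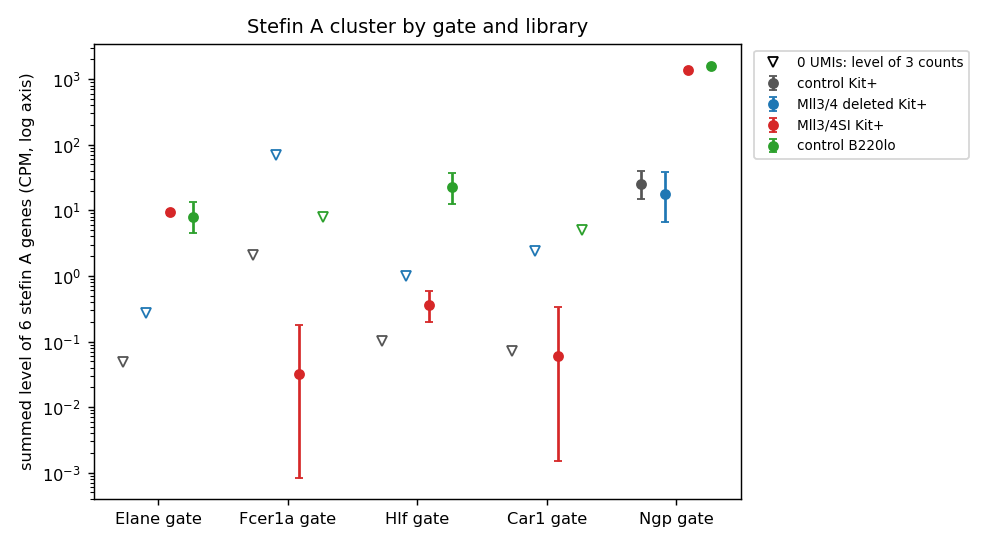
Summed level of the 6 stefin A genes (CPM, log axis) in 5 gates of the 4 libraries. Circles are levels with exact Poisson 95% intervals and open triangles mark the level of 3 counts where 0 UMIs were counted. In the Elane gate SI cells stand at 9.28 and control B220lo cells at 8.03 CPM, and in the Ngp gate these 2 libraries stand above 1000 CPM.

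The control B220lo library, which the choice of genes had not used, also held stefin A transcripts. Its 102 Elane-positive cells had 15 UMIs in 6 cells, 8.03 CPM (4.50 to 13.3), and the SI level was 1.16 times this (0.694 to 2.08). Without the 1 SI cell that held most of its count, the SI level was 2.75 CPM (2.33 to 3.22), below the control B220lo level. No control B220lo cell of this gate was left out. With all SI cells kept, taking this control library in place of the Kit+ control moved the log2 ratio from 3.36 to 0.19. Cells of the 2 gates were not alike, since 9 later neutrophil markers summed to 29145 CPM in the B220lo gate, 1325 CPM in SI and 821 CPM in control Kit+ cells. The part of this difference in the stefin level was not tested. Among cells of the gate with 10 or more UMIs of Ngp, Camp, Ltf and Lcn2, a split described below, the order was the other way. There SI stood at 251 CPM (201 to 310) without that cell and control B220lo at 72.5 CPM (39.6 to 122). These are few cells, and the intervals do not cover the spread between cells. Below that split, control B220lo cells had too few stefin UMIs to compare. In the Hlf gate 1 of 58 control B220lo cells held all 15 UMIs counted. That cell also had 543 UMIs of Ngp and 441 of Camp. The 9 later neutrophil markers summed to 24852 CPM in the control B220lo Hlf gate and 656 CPM in that of SI.

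A few cells carried most of the transcripts. Of 1146 stefin UMIs in all kept SI cells, 436 were in 1 cell and 359 in another, 69.4% together, and 48 of the 55 positive cells had fewer than 10. The cell with 359 UMIs was in the Elane gate and held 70.4% of its count. It had 26296 UMIs in all, with 186 of Elane, 307 of Ngp and 8 of Kit. Without the 2 richest cells of each library, the Elane gate kept 151 SI UMIs against 0, and the log2 ratio was 1.91. Only 1 of the 2 SI cells lay in this gate, and its next richest cell, with 70 UMIs, stayed in. Counts in control B220lo cells were also concentrated, with 3203 UMIs in 92 cells and 95.4% of them in 17 cells. The control Kit+ library had 19 UMIs in 3 cells and the deleted library 42 UMIs in 8 cells.

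**Figure D2:**
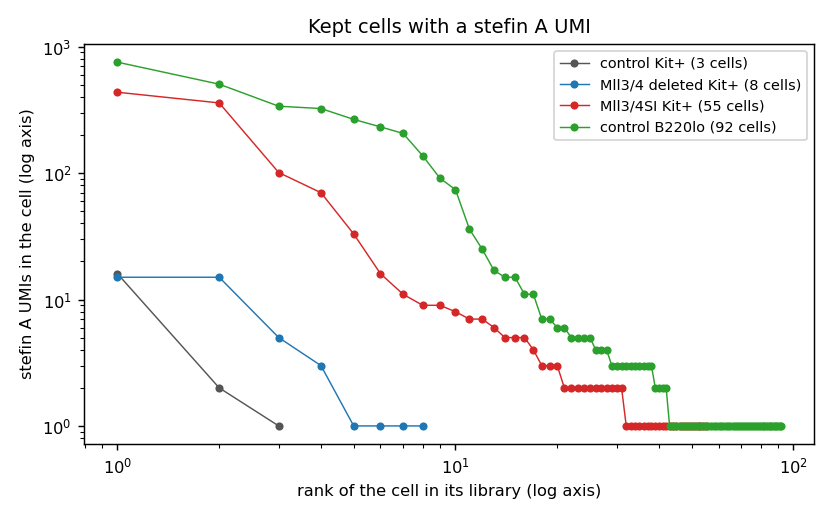
Stefin A UMIs in each kept cell with at least 1, ranked within its library (both axes log). The SI library reaches 436 and the control B220lo library 754 UMIs in a cell, while no cell of the other libraries passes 16.

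Doublet removal moved the SI level in 3 gates. Barcodes removed as likely doublets held 285 stefin UMIs in the SI library, 212 and 61 of them in 2 barcodes, and 0 in the control Kit+ and deleted libraries. With doublets kept the Fcer1a gate had 214 SI UMIs and a log2 ratio of 2.77, against 1 UMI and 0.05 with doublets removed. The Hlf gate had 87 UMIs and a log2 ratio of 1.47, against 15 and 0.44, and the Elane gate 795 UMIs and 3.73, against 510 and 3.36.

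The level was higher in SI Elane-positive cells with more transcripts of secondary granule proteins. Elane-positive cells were split by their summed UMIs of the secondary granule genes Ngp, Camp, Ltf and Lcn2. SI cells with 0 such UMIs had 31 stefin UMIs in 17 of 2339 cells, 0.835 CPM (0.567 to 1.18). Those with 1 to 9 had 34 UMIs in 15 of 985 cells, 1.95 CPM (1.35 to 2.72). Those with 10 or more had 445 UMIs in 5 of 21 cells, 1208 CPM, of which 1 cell held 359. In all 3 strata the control Kit+ library had 0 UMIs, in 2765, 1431 and 27 cells, with floors of 0.0765, 0.132 and 6.24 CPM. Control B220lo cells had 0 UMIs in 55 cells, 1 UMI in 36 and 14 UMIs (72.5 CPM) in 11.

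Different members led these strata, with the limit on telling Stfa1 from Cstdc5 given above. In SI cells without secondary granule UMIs, Stfa1 had 28 of the 31 UMIs, in 15 cells with at most 5 each, Cstdc5 had 2 and Cstdc4 1. With 1 to 9 granule UMIs, Cstdc5 had 23 UMIs in 11 cells and Stfa1 11 UMIs in 5 cells, and the other 4 members had 0. With 10 or more, Cstdc5 had 241, Stfa1 77, Stfa2 49, Stfa3 44 and Stfa2l1 34 UMIs. Among SI Elane-positive cells, Stfa2 was thus counted in 1 cell, Stfa3 in 2 and Stfa2l1 in 3, all of the last stratum. Without the cell with 359 UMIs this stratum stood at 251 CPM (201 to 310). The 17 stefin-positive cells of the first stratum carried 15451 CPM of Elane, 2341 CPM of the granulocyte gene Ms4a3 and 36.3 CPM of the monocyte gene F13a1. The other 2322 cells of the stratum carried 11930, 1364 and 174 CPM. Further genes were lower in the positive cells, with Cebpa at 69.0 against 106, Kit at 163 against 221 and Cd34 at 127 against 299 CPM. The F13a1 level of the positive cells came from 10 UMIs in 5 cells. Median depth was 13560 UMIs in the positive and 15760 UMIs in the other cells.

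The low level in early Elane-positive cells was set beside the Fcer1a and Car1 gates of the same library. Of their cells, 106 and 17 were also in the Elane gate, so they are not a clean background. A stefin UMI was present in 0.727% (0.424 to 1.16) of SI Elane-positive cells without granule UMIs, at a median depth of 15758 UMIs. It was present in 0.0427% (0.00108 to 0.238) of SI cells of the Fcer1a gate, at 11699 UMIs. It was present in 0.115% (0.00291 to 0.639) of the Car1 gate, at 18354 UMIs. These gates are among the values that chose the genes, so the shares are a description, and the interval of the first overlapped that of the Car1 gate. Thinned to 2000 UMIs per cell, the shares were 0.0857% (2 of 2334 cells), 0 of 2338 and 0 of 868, which is too few to compare. In B-lineage cells (at least 3 Cd79a UMIs, no Elane and under 10 Ngp UMIs) the share was 0 of 8910 in the deleted and 0.244% (0.158 to 0.360) in the control B220lo library. Median depths there were 6384 and 3061 UMIs. Elane-positive control B220lo cells without granule UMIs had a stefin UMI in 0 of 55, too few cells to compare with the SI share of 0.727%.

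Later neutrophil cells, taken as cells with at least 10 UMIs of Ngp (a secondary granule protein of neutrophils), were described as a further gate. It overlaps the Elane gate, and the SI cells with 359 and 70 stefin UMIs were in both. Part of its SI level therefore repeats the Elane-gate count. This gate had 80 control Kit+, 31 deleted, 67 SI and 185 control B220lo cells, and 9 later neutrophil markers summed to 165750, 176730, 272290 and 300420 CPM in them. The 8 B lineage markers summed to 23.8, 6799, 24.2 and 987 CPM in the same order, and their part in the stefin levels was not tested. The 6 stefin A genes summed to 25.1 CPM (15.1 to 39.2) in control Kit+, 17.8 (6.53 to 38.8) in deleted, 1390 (1306 to 1477) in SI and 1603 (1544 to 1664) in control B220lo cells. The SI and control B220lo libraries were both high and the other 2 both low. In SI 76.8% of these UMIs were in 2 of the 67 cells. Without the 2 richest cells of each library the levels were 340 CPM (298 to 386) in SI, 897 (853 to 944) in control B220lo, 1.35 (0.0341 to 7.51) in control Kit+ and 17.8 in deleted cells. The 2 richest deleted cells lay outside this gate, where 5 of the 6 deleted UMIs were in 1 cell. A stefin UMI was present in 3 of 80, 2 of 31, 13 of 67 and 39 of 185 cells, or 3.75% (0.780 to 10.6), 6.45% (0.791 to 21.4), 19.4% (10.8 to 30.9) and 21.1% (15.4 to 27.7). Thinned to 2000 UMIs the shares were 4.29, 3.45, 13.6 and 14.4%, with 10, 2, 1 and 4 shallower cells left out.

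All 6 members were counted in the Ngp gate of the SI and control B220lo libraries. Cstdc5 stood at 791 CPM in SI and 736 CPM in control B220lo cells, on 12 and 27 positive cells, and at 1.32 and 2.97 CPM, on 1 UMI each, in control Kit+ and deleted cells. Cstdc4 stood at 125 and 283 CPM in SI and control B220lo cells, Stfa1 at 128 and 351, Stfa2l1 at 137 and 144, Stfa3 at 110 and 52.0, and Stfa2 at 99.4 and 37.6 CPM. Cstdc5 was thus the highest member in both libraries. Without the 2 richest cells it stood at 255 CPM in SI and 499 CPM in control B220lo cells, and the other 5 members at 0 to 45.3 and 35.5 to 125 CPM. In the control Kit+ library, 18 of the 19 UMIs were Stfa1, 16 of them in 1 cell. In the deleted gate Cstdc4 had 4 UMIs and Cstdc5 and Stfa3 1 each. In the deleted library the leading members were Cstdc4 with 17 and Stfa1 with 16 of 42 UMIs over all kept cells. These levels are counts per gene of a 5′ library and were not scaled to transcript length, so the order of the members was not read as an order of transcript abundance beyond this library type.

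Members were detected together in the richest cells. Of the 7 SI cells with at least 10 stefin UMIs, all had at least 2 members and 1 had all 6. Of the 17 such control B220lo cells, 12 had at least 2 members and 3 had all 6. Cstdc5 was present in 7 of 7 and 15 of 17 of these cells and made up 56.6% and 45.0% of their stefin UMIs. The make-up still differed from cell to cell. The SI cell with 436 UMIs had 243 of Cstdc5, 80 of Cstdc4 and 8 of Stfa1, while the cell with 359 had 166 of Cstdc5, 0 of Cstdc4 and 74 of Stfa1. Stfa1 exceeded Cstdc5 in 3 of the 17 control B220lo cells, with 257 against 99, 118 against 83 and 24 against 12 UMIs.

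**Figure D3:**
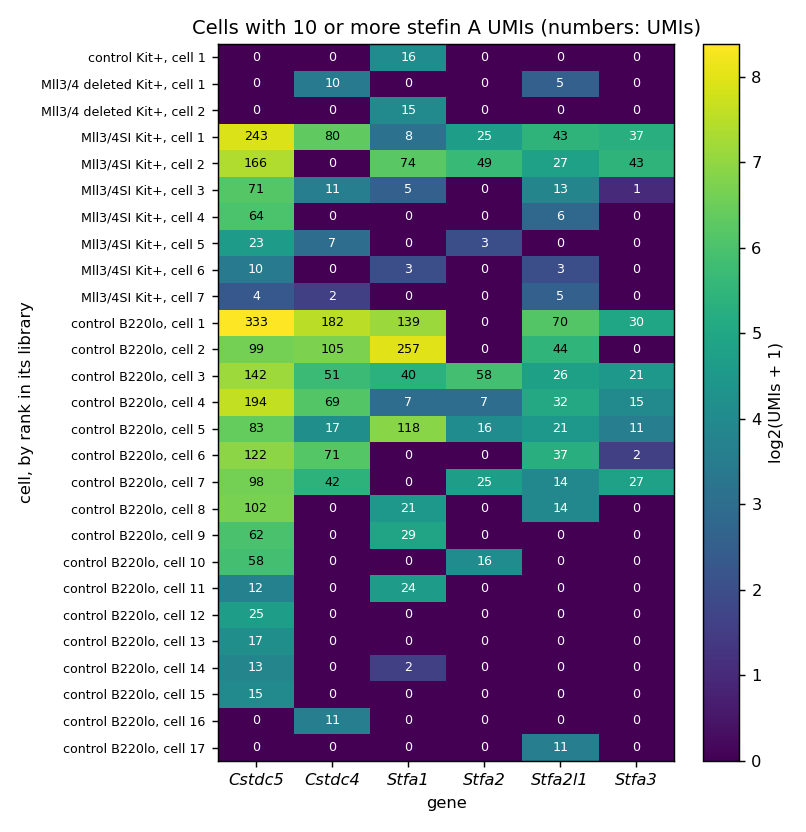
UMIs of each member in all 27 kept cells with at least 10 stefin A UMIs (colour, log2 of UMIs plus 1; numbers, UMIs). Cstdc5 is present in all 7 SI cells and 15 of 17 control B220lo cells, while Stfa2 is at 0 in most cells.

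Stefin-rich SI and control B220lo cells of the Ngp gate had little or no Chil3, a chitinase-like secretory protein of neutrophils and macrophages. This split was chosen after the values were seen. Among Ngp-gate cells with 0 Chil3 UMIs, a stefin UMI was present in 9 of 22 SI cells (40.9%, 20.7 to 63.6) and 29 of 75 control B220lo cells (38.7%, 27.6 to 50.6). Among those with 3 or more Chil3 UMIs, it was present in 3 of 41 SI (7.32%, 1.54 to 19.9) and 7 of 101 control B220lo cells (6.93%, 2.83 to 13.8). The level was 3238 CPM against 50.2 CPM in SI and 3412 CPM against 15.9 CPM in control B220lo cells. Without the 2 richest cells of each library, the cells with 0 Chil3 UMIs stood at 592 and 1532 CPM. Within this gate, all 6 SI and 15 control B220lo cells with 10 or more stefin UMIs had at most 1 Chil3 UMI. The 1 control Kit+ cell with 16 stefin UMIs had 126.

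Cells of the Ngp gate with 0 Chil3 UMIs were spread unevenly over the libraries. They numbered 2 of 80 in control Kit+, 1 of 31 in deleted, 22 of 67 in SI and 75 of 185 in control B220lo cells. Among cells with 3 or more Chil3 UMIs the stefin level was 27.3 CPM (16.5 to 42.7) in control Kit+, 19.0 (6.95 to 41.2) in deleted, 50.2 (30.7 to 77.6) in SI and 15.9 (9.08 to 25.8) in control B220lo cells. These levels lay far below those of SI and control B220lo cells without Chil3. The SI interval overlapped those of the control Kit+ and deleted libraries and lay above that of the control B220lo library. The UMIs came from 3 SI and 7 control B220lo cells, and the intervals do not cover the spread between cells. Of cells with fewer than 3 Chil3 UMIs control Kit+ had 8 and deleted 3, too few to compare. The cells without Chil3 were otherwise rich in neutrophil transcripts. In SI they had 46735 CPM of Ngp, 41099 of Camp and 52355 of S100a8, against 37691, 51537 and 71770 CPM in SI cells with 3 or more Chil3 UMIs. Elane stood at 3427 against 4096 CPM and Abca13, a lipid transporter gene, at 24.0 against 213 CPM.

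**Figure D4:**
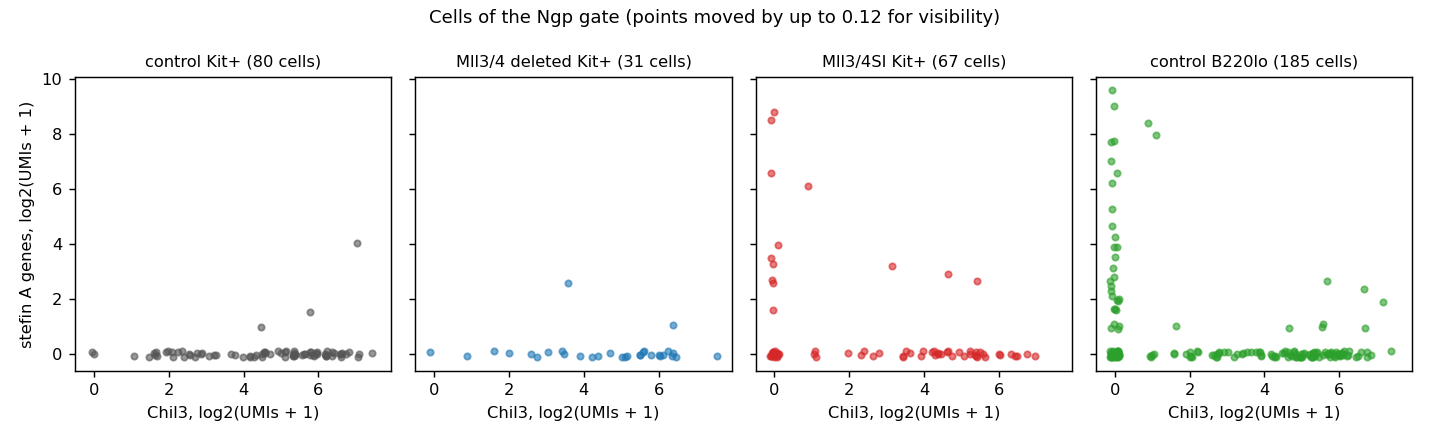
Each point is a cell of the Ngp gate, with Chil3 on the horizontal and the 6 stefin A genes on the vertical axis, both as log2 of UMIs plus 1. High stefin counts stand at 0 to 1 Chil3 UMIs in the SI and control B220lo panels, and the 3 positive control Kit+ cells lie at higher Chil3.

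Cells with Retnlg, a resistin-like gene of mature neutrophils, gave another pattern. In the deleted library 40 of the 42 stefin UMIs were in 6 of the 15 kept cells with at least 10 Retnlg UMIs. In these cells the level was 307 CPM (219 to 418) in deleted, 27.6 (3.35 to 99.8) in SI and 310 (241 to 392) in control B220lo cells. The 7 control Kit+ cells had 0 UMIs, with an exact Poisson interval of 0 to 48.7 CPM that spans the SI level. The 2 deleted cells with 15 stefin UMIs each also had 43 and 41 UMIs of the B-cell receptor gene Cd79a, so they carried transcripts of both lineages. Without them the deleted level was 91.9 CPM (44.1 to 169). In the SI library 1 of the 55 stefin-positive cells had at least 10 Retnlg UMIs.

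Cysteine proteases, papain-like except for legumain (Lgmn), and other cystatins were compared in the Elane gate. Of 11 cysteine protease genes, 10 had at least 20 UMIs over the SI and control Kit+ cells, and 0 of these lay past 2-fold, where 1.22% of all genes tested were higher and 0.496% lower. Their median log2 ratio was 0.04 and that of all genes tested 0.03. Cathepsin B (Ctsb) stood at 230 CPM in SI and 215 CPM in control, a ratio of 1.07 (1.05 to 1.10). Ctsf stood at 16.7 against 9.15 CPM (1.83, 1.64 to 2.03) and Ctss at 10.3 against 16.3 CPM (0.633, 0.570 to 0.702). Of the other cystatins, 3 of the 10 found in the files passed the count minimum, and 0 lay past 2-fold. They were Cstb (stefin B, 95.5 against 82.5 CPM), the secreted Cst3 (722 against 647) and the leukocyte cystatin Cst7 (367 against 354). Cstdc6, a further gene of the same cluster that was not among the 6, had 17 UMIs in SI and 0 in control Kit+ cells, 15 of them in the cell with 359 stefin A UMIs. The limit on telling Cstdc6 from Cstdc5 is given above.

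Of 14 late neutrophil genes, S100a8 was past 2-fold higher in SI (425 against 171 CPM) and Chil3 (9.10 against 30.9 CPM) and Retnlg (0.127 against 1.63 CPM) were past 2-fold lower, against 1.22% higher and 0.496% lower of all genes tested, with a list median of -0.04. Ngp (145 against 95.1 CPM), Camp (165 against 123) and Ltf (5.06 against 10.6) stayed within it on the log2 scale with 1 CPM added. In the SI Fcer1a gate 9 of 12 late neutrophil genes with enough UMIs lay past 2-fold higher (5.89% of all genes tested) and 1, Cebpe, lower at 7.31 against 26.0 CPM (4.59% of all genes tested). Among the higher genes was Ngp at 130 against 6.32 CPM. The share of cells with an Ngp UMI was lower in SI, at 1.84% against 5.51%, as was that with Lcn2, at 1.62% against 7.09%, S100a8 and S100a9. It was higher for the other 5, such as Camp at 2.09% against 1.57%, so no order is read from these levels. In that SI gate the stefin A genes had 1 UMI. There 9 later neutrophil markers summed to 826 CPM in SI and 45.6 CPM in control Kit+ cells.

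Genes next to the cluster were described in the same way. Because the 6 genes were chosen by this contrast and their neighbours were not, the sizes of their differences are not compared. Within 500 kb of the 6 genes 28 others were annotated and counted, of which 17 passed the count minimum in the Elane gate and 0 lay past 2-fold, against 1.22% higher and 0.496% lower of all genes tested, so a count of 0 is near the background. Their log2 ratios ran from -0.24 to 0.66 with a median of 0.09. The highest were Parp14 (0.66) and the peptide transporter Slc15a2 (0.63). The family members Csta1, Csta2 and Csta3 had 0, 8 and 2 UMIs in SI and 1, 2 and 0 in control Kit+ cells.

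**Figure D5:**
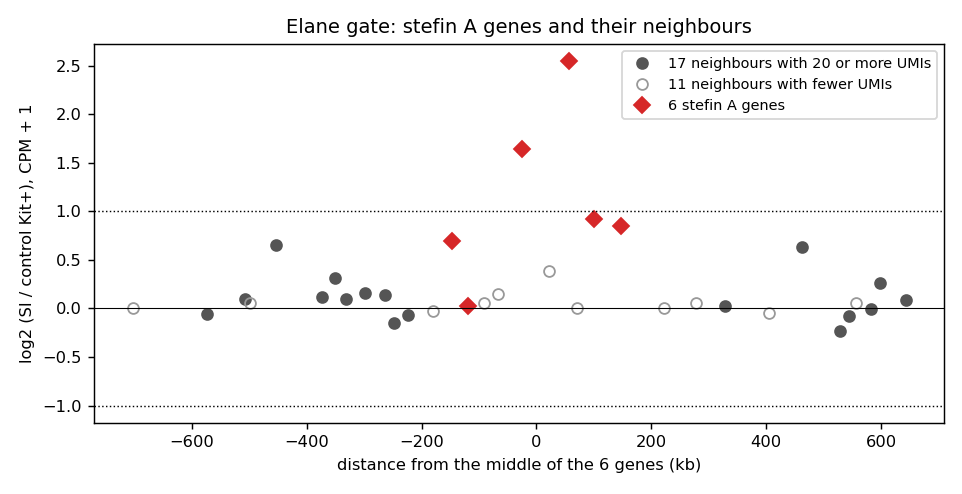
Log2 ratio of SI over control Kit+ cells in the Elane gate (CPM plus 1) against distance from the middle of the 6 genes. Red diamonds are the stefin A genes, filled circles the 17 neighbours with at least 20 UMIs, open circles the other 11, and dotted lines mark 2-fold. Neighbours lie between -0.24 and 0.66.

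Over the 12 groups given by the 3 Kit+ libraries and 4 gates, Cstdc5 and Stfa1 were the members with at least 100 UMIs, at 274 and 122. Both reached this minimum through the SI Elane gate, with 266 and 116 of these UMIs, and 1 cell of it held 166 and 74. The other 11 groups are near 0, so the values below are set by that 1 group and are a description only. Each was the gene most like the other among 12198 genes, with a Pearson r of 0.998 of log2 CPM plus 1. The next most like Cstdc5 were Rbp4, a retinol carrier (0.925), and the organic anion transporter Slco4c1 (0.829), and the same 2 genes followed for Stfa1 (0.916 and 0.819). Rbp4 stood at 1.51 CPM in SI and 0.0640 CPM in control Kit+ cells of the Elane gate. These 12 groups share libraries and, through overlapping gates, cells.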

How the data were processed

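The authors deposited UMI counts per gene and cell barcode for 4 libraries, not normalized, made with Cell Ranger 7.1.0 on mm10, per the submitters' processing notes; kits were 10x Genomics 5′ version 2, per the labels' protocols. Immunoglobulin contig tables were not used here. Barcodes were kept with at least 1000 UMIs, 500 genes and at most 10% mitochondrial UMIs. Scrublet (scanpy 1.11.5, expected share 8%) marked 1166, 0, 1 and 0 barcodes as doublets by its own threshold and had not worked in 3 libraries, so a fixed score of 0.25 removed 840, 1168, 580 and 949 (control Kit+, deleted, SI, control B220lo). Counts were summed per gate and library. Levels carry exact Poisson 95% intervals, shares exact Clopper-Pearson intervals and CPM ratios conditional binomial intervals (scipy 1.17.1), all covering counting error only. Log2 ratios used a pseudocount of 1 CPM and genes with at least 20 UMIs over both libraries; 2-fold either way was the limit for a count. This step was tested on simulated pooled counts in which the changed genes had high counts. That test does not cover low counts or counts held by few cells, as those of the stefin A genes are. All 6 members are named, with the genes of preset lists, genes within 500 kb and the 3 genes most like a member. The members and lists were chosen with earlier results of these data known. Positions came from GENCODE M21 (GRCm38), in which 32158 of 32285 identifiers were found, and promoters from RefSeq (GRCm38.p6), in which all 6 members were found. Splits by Chil3, Retnlg and stefin-rich cells, counts without the 2 richest cells and the control B220lo comparison were added after the data were seen. Alternatives changed doublet removal, gates, pseudocount, totals, centring and the gene minimum.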

Additional observations from a re-analysis of the deposited data

How the results depend on the processing

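No paired analysis was possible because each group had 1 library. Over 104 alternative values, 75 stayed within their counting interval or within 1.5 times the count and 29 moved. Deleted over control stefin sums had 0 UMIs on both sides with the Kit+ control and could hardly move. Leaving out the richest cells could not move gates that held none of them. The tally therefore does not measure stability. For the SI over control log2 ratio of the summed stefin A level in the Elane gate (3.36), keeping doublets or all barcodes gave 3.73, gates on UMIs relative to cell depth 3.5, cells in 1 gate only 3.68, totals without ribosomal and mitochondrial genes 3.69 and a pseudocount of 10 CPM 0.95. Leaving out the 2 stefin-richest cells of each library, of which 1 SI cell lay in this gate, gave 1.91. Control B220lo cells as control, with all SI cells kept, gave 0.19. All these values moved, while doubled gate thresholds (3.43) and centring on the median gene (3.33) stayed within the interval. The Fcer1a gate moved from 0.05 to 2.77 with doublets kept or with all barcodes. The Hlf gate moved from 0.44 to 1.47 with doublets kept or with all barcodes, 0.08 with doubled thresholds, 0.05 with 10 CPM added and, with the opposite sign, -4.11 against control B220lo cells. Deleted over control ratios, at 0 in all 4 gates, moved to -3.18 (Elane) and -4.55 (Hlf) against control B220lo cells. Both Hlf values against control B220lo cells rest on 1 cell, which held all 15 stefin UMIs of that gate and 543 Ngp UMIs. Counts of genes past 2-fold depended on the pseudocount: with 10 CPM, SI over control went from 253 to 62 (Elane), 1364 to 283 (Fcer1a), 353 to 75 (Hlf) and 161 to 40 (Car1), and deleted over control from 593 to 126 (Elane), 783 to 169 (Hlf) and 855 to 90 (Car1). With at least 100 UMIs, the SI count was 815 (Fcer1a), and the deleted counts were 507 against 3139 (Fcer1a), 438 (Hlf) and 453 (Car1). With at least 1 UMI the deleted Fcer1a count was 7379. With 10 CPM the same genes and cells were counted, so that fall follows from the larger pseudocount. Other gene minimums changed the gene set, and other settings the cells or totals. No further cause was tested. Depth limits a level of 0 most in the deleted library, where 4 Fcer1a-positive cells allow up to 70.7 CPM.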

Other observations

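Stefin-rich cells of the Ngp gate (10 or more stefin A UMIs) were compared with cells of that gate without any, 6 against 54 in SI and 15 against 146 in control B220lo cells, a split chosen after the values were seen. Beside the 6 genes, Cstdc6 of the same cluster was higher, at 647 against 8.65 CPM in SI and 1014 against 2.38 CPM in control B220lo cells. Cstdc6 shares transcript stretches with Cstdc5, so their reads may not be fully told apart. Chil3 was lower, at 11.6 against 2287 and 10.9 against 2761 CPM. Abca13 had 0 UMIs in the stefin-rich cells of both libraries, against 135 and 214 CPM. Ly6g, a surface marker of mature neutrophils, was at 57.8 against 126 CPM in SI cells. Among the other genes at a higher level were Prss57, an azurophil granule protease gene, at 231 against 100.4 CPM in SI and 98.1 against 46.0 CPM in control B220lo cells, and Mcm6, a subunit of the replication helicase, at 266 against 114 and 163 against 72.2 CPM.

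In the control B220lo library stefin A transcripts were also counted in cells of other gates. Cells with at least 3 UMIs of Siglech, a marker of plasmacytoid dendritic cells, had 294 UMIs in 5 of 1689 cells. A single cell held 266 of them and also had 954 Ngp, 904 Camp and 1012 S100a8 UMIs. Cells with at least 3 Cd79a UMIs had 1131 UMIs in 36 of 10839 cells, and 1092 of these UMIs were in 8 cells that also had at least 10 Ngp UMIs.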
